A study of Mus musculus with 11 samples.

Results

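The genes described here are 35 genes of inflammatory signalling: cytokines, chemokines, the subunits and inhibitors of the transcription factor NF-kB, the core of the inflammasome, and the adhesion molecule Icam1. They were taken by symbol from the 57180 gene identifiers of the count table, and all 35 were found. The series is a bulk RNA-seq study of alveolar macrophages, the phagocytes of the air spaces, which were sorted by flow cytometry from lung homogenates of wild-type C57BL/6 mouse pups on postnatal day (PND) 7. Its title names sex as the variable of interest, and the question for these genes was whether their RNA differed after neonatal high oxygen and whether any response differed between females and males. The 11 libraries form 4 groups: 3 hyperoxia female (HF1 to HF3) and 2 hyperoxia male (HM2 and HM3) libraries from pups kept in 95% oxygen between PND 1 and PND 5, and 3 normoxia female (NF1 to NF3) and 3 normoxia male (NM1 to NM3) libraries. All cells were taken on day 7, after the exposure had ended on day 5, so RNA during exposure was not measured. The labels do not say whether a library is 1 animal or a pool, so each p-value rests on library-to-library spread, part of which may be technical.

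NF-kB is a family of dimeric transcription factors held in the cytoplasm by inhibitor proteins of the IkB family. When a receptor for a microbial product, for TNF or for IL-1 is engaged, the inhibitor is phosphorylated and degraded, and the dimer enters the nucleus, where it activates cytokines, chemokines and adhesion molecules along with the genes of its own inhibitors. The inflammasome is a protein complex that activates caspase-1, which cuts the precursors of IL-1 beta and IL-18 into their secreted forms. Resident alveolar macrophages are the first immune cells that inhaled material meets, and neonatal hyperoxia is a standard mouse model of the lung injury of preterm infants.

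Library depth was 18087948 to 32579468 counts. HF2, HF3, NF3 and NM3 had counts for 33158 to 35530 genes, and the other 7 libraries for 26856 to 30173. The alveolar macrophage markers Siglecf and Marco were present in every library, at 157 to 377 and 141 to 450 CPM (counts scaled to a common library size), and the neutrophil marker Ly6g had 0 counts in every library. Summed markers of other myeloid cells were not level between libraries. The 8 monocyte markers summed to 46.9 to 122 CPM in hyperoxia females and 60.5 to 67 CPM in hyperoxia males, against 43 to 53.6 CPM in normoxia females and 23.6 to 59.8 CPM in normoxia males. The 9 interstitial macrophage markers summed to 36.1 to 128 and 51 to 64.5 CPM in hyperoxia females and males, against 32.8 to 42.8 and 27.2 to 50.3 CPM in normoxia females and males. HF2 held the top value of both sums. The 12 neutrophil markers summed to 32.3 to 39.4 and 32.7 to 35.7 CPM in hyperoxia females and males, against 42.1 to 62.6 and 33.2 to 50.5 CPM in normoxia females and males. Within that list Csf3r had 10.2 to 19 CPM in hyperoxia and 17.7 to 50.3 CPM in normoxia libraries. S100a8 went the other way, with 6.86 to 11.9 CPM in hyperoxia and 3.28 to 8.66 CPM in normoxia libraries. Over both sexes, all 8 monocyte markers and 7 of the 8 interstitial macrophage markers tested had a log2 fold change above 0 (medians 0.73 and 1.01). Of the 9 neutrophil markers tested, 5 did (median 0.027). No gene of these 3 lists passed edgeR's test (adjusted p under 0.05). Of 18 alveolar macrophage markers, 6 passed that test and fell (Ear1, Fabp4, Fabp1, Krt79, Cidec and Ctsk), beside 0.707% of all genes passing in either direction. The sum of all 18 ran from 6231 to 8965 CPM in hyperoxia females and 7308 to 8117 CPM in hyperoxia males. In normoxia it ran from 7984 to 9970 CPM in females and 5687 to 10066 CPM in males. The part of these cell markers in the values below was not tested. In bulk RNA, fewer cells of a type and less RNA per cell cannot be told apart.

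Levels of the 35 genes spanned most of the range of the transcriptome. To compare genes with each other, CPM were divided by exon length in kb, the union of all annotated exons of a gene. That union can be longer than the transcript a cell makes, so levels set between genes depend on it. Ccl6, a CC chemokine that attracts monocytes and other leukocytes, stood at 2953 CPM per kb averaged over the libraries and ranked 7 among the 19948 genes tested. It alone took 0.376% to 0.703% of all counts of a library. Il18, the interferon-inducing cytokine of the IL-1 family, followed at 132 CPM per kb (rank 291), then Ccl9, a chemokine related to Ccl6, at 90.4 CPM per kb (rank 432). Il1rn, the antagonist that occupies the IL-1 receptor without signalling, stood at 88.3 CPM per kb (rank 447). Mif, macrophage migration inhibitory factor, stood at 33 CPM per kb (rank 1194). Of its 50-base exon windows, 50.9% also occur in other annotated genes, so its level may include their reads or lack some of its own. In all, 5 of the 35 genes averaged over 100 CPM and 14 averaged under 10 CPM.

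**Figure D1:**
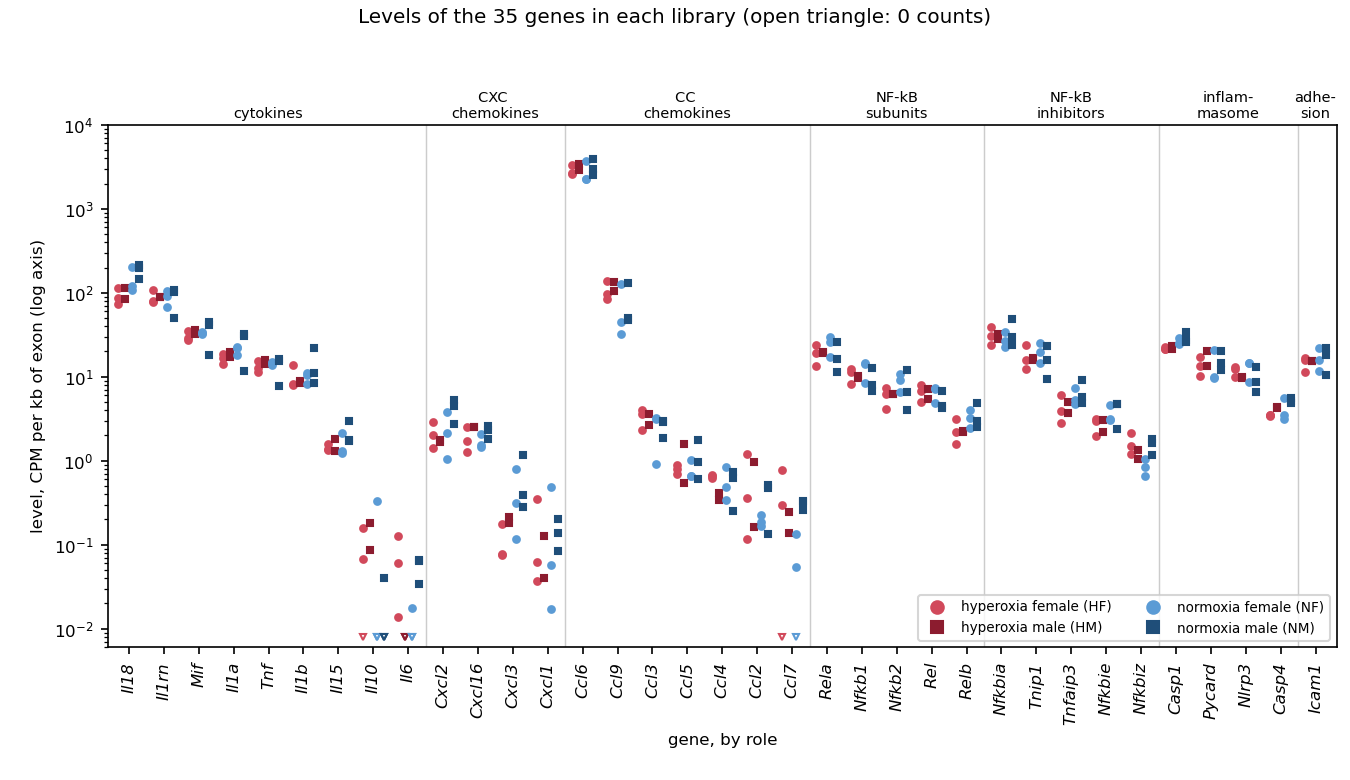
Level of each of the 35 genes in each library, in CPM per kb of exon on a log axis, with genes grouped by role. Each point is 1 library, circles are females and squares are males, and open triangles mark 0 counts. Ccl6 lies near 2953 CPM per kb, above all the others, while Il6, Il10, Cxcl1, Ccl2, Ccl4 and Ccl7 lie at the bottom.

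Among the 5 highest genes, Ccl6 had 4782, 4662 and 5909 CPM in HF1 to HF3 and 6172 and 5146 CPM in HM2 and HM3, against 4011, 4046 and 6743 CPM in NF1 to NF3 and 6936, 4583 and 5311 CPM in NM1 to NM3. Its hyperoxia libraries lay inside the range of its normoxia libraries. Ccl9 had 255, 298 and 424 CPM in HF1 to HF3 and 410 and 317 CPM in HM2 and HM3, against 98.9, 138 and 387 CPM in NF1 to NF3 and 401, 143 and 154 CPM in NM1 to NM3. All but 2 normoxia libraries (NF3 and NM1) lay below every hyperoxia library. Il1rn had 590, 429 and 444 CPM in HF1 to HF3 and 499 and 497 CPM in HM2 and HM3, against 508, 582 and 378 CPM in NF1 to NF3 and 593, 572 and 281 CPM in NM1 to NM3. These groups overlapped. Mif had 25.8, 21.5 and 20.2 CPM in HF1 to HF3 and 26.9 and 24.4 CPM in HM2 and HM3, against 24.5, 25.3 and 24.1 CPM in NF1 to NF3 and 33.8, 31 and 13.4 CPM in NM1 to NM3. The normoxia males held both its highest and its lowest value.

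Set against each other per kb, the antagonist outweighed the 2 IL-1 agonists in every library. The ratio of Il1rn to the sum of Il1a and Il1b, the genes of IL-1 alpha and IL-1 beta, was 3.38 ± 0.746 in hyperoxia females (SD, n = 3) and 3.33 ± 0.262 in hyperoxia males (SD, n = 2), against 2.87 ± 0.679 in normoxia females (SD, n = 3) and 2.31 ± 0.235 in normoxia males (SD, n = 3), and ran from 2.05 to 3.99 over all 11. The chemokines were as uneven. Ccl6 and Ccl9 made up 99.6% to 99.8% of the summed per-kb level of the 11 chemokines in each library. Among the 5 NF-kB subunits, Nfkb1 averaged more CPM than Rela (128 against 62.1), over exon lengths of 12061 and 3072 bases. Shares per kb therefore depend on the length used. Per kb, Rela, the activating partner of the classical dimer, gave 39% to 44.9% of the summed level of the 5. Relb, a partner of p52 in the non-canonical pathway, gave 4.71% to 8.64%. Its share was 5.12% ± 0.626 in hyperoxia females (SD, n = 3) and 5.04% ± 0.0919 in hyperoxia males (SD, n = 2), against 5.91% ± 0.411 in normoxia females (SD, n = 3) and 8.09% ± 0.481 in normoxia males (SD, n = 3).

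Many of the classical inducible genes lay near the count floor, taken here as 3 counts in a library (0.088 to 0.16 CPM). Il6, Il10 and Ccl7 did not pass the expression filter. Il6, a cytokine of the acute phase, had 1, 5 and 9 counts in HF1 to HF3 and 0 in both HM2 and HM3, against 0, 0 and 1 in NF1 to NF3 and 3, 2 and 3 in NM1 to NM3. Il10, an anti-inflammatory cytokine, had 0 to 6 counts in hyperoxia libraries and 0 to 10 in normoxia libraries. Ccl7, a monocyte chemokine, had 0 to 21 counts in hyperoxia libraries, with the 21 in HF2, and 0 to 5 in normoxia libraries. Cxcl1, Ccl2 and Ccl4 passed the filter but held fewer than 10 counts in at least 6 of the 11 libraries. Ccl2, the main ligand of the monocyte receptor CCR2, had 4, 47 and 12 counts in HF1 to HF3 and 28 and 5 in HM2 and HM3, against 6, 6 and 6 in NF1 to NF3 and 11, 13 and 3 in NM1 to NM3. Its highest value was in HF2, the library with the most monocyte and interstitial macrophage marker RNA. Cxcl1, a neutrophil chemokine, had 2 to 20 counts in hyperoxia libraries and 1 to 21 in normoxia libraries. Ccl4, a CC chemokine of activated macrophages, had 6 to 14 counts in hyperoxia libraries and 4 to 13 in normoxia libraries. No fold is given for these 6 genes. Il6, Il10 and Ccl7 were not tested. Cxcl1, Ccl2 and Ccl4 were tested at these low counts, and none had an edgeR adjusted p under 0.05 in the comparisons below. Neither outcome shows that there was no difference.

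The promoters of these genes were searched for NF-kB consensus letters. RefSeq promoter windows (build GRCm38.p6; the count table itself was made on mm39) were found for 25 of the 35 genes. In the 250 bases before the transcription start, the 10-letter NF-kB consensus, searched on both strands, was present for 13 of the 25 genes (52%) and for 8.23% of all 27025 genes with a window. The 13 were Il6, Cxcl1, Cxcl2, Cxcl3, Ccl9, Nfkbia, Nfkbie, Nfkb2, Rel, Tnfaip3, Tnip1, Nlrp3 and Casp4. The windows of Ccl6, Il18, Il1rn, Mif, Il1a, Il1b, Tnf, Ccl3, Rela, Casp1, Pycard and Icam1 had no match. A match is a description of these letters and not a bound site, and its absence from this window says nothing about binding elsewhere. The members were chosen as NF-kB regulators and inflammatory genes. That choice itself favours a higher share than over all genes, and the shares were not tested. The windows below are those of the 3 related neutrophil chemokines, of Nfkbia as the standard NF-kB feedback gene, and of the 2 highest genes without a match. Capitals mark the matches, and each line reads 5′ to 3′ on the strand of the gene and ends at the base before its start.
Cxcl1: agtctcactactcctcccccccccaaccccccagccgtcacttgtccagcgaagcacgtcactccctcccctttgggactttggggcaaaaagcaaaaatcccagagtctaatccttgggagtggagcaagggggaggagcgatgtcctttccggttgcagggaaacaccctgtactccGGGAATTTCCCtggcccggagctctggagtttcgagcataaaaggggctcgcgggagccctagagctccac
Cxcl2: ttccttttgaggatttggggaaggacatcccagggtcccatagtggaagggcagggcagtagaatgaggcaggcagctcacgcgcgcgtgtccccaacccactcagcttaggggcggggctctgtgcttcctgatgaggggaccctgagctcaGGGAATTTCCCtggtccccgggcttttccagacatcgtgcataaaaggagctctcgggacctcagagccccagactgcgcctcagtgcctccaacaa
Cxcl3: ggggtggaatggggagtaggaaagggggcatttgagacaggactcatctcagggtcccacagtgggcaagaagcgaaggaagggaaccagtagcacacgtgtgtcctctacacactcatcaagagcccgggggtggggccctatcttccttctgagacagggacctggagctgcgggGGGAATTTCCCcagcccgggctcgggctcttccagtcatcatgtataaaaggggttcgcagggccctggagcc
Nfkbia: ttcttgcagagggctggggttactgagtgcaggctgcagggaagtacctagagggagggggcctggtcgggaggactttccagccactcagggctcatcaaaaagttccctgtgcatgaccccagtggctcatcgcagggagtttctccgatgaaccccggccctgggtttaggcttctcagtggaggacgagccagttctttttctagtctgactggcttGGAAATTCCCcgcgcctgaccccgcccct
Ccl6: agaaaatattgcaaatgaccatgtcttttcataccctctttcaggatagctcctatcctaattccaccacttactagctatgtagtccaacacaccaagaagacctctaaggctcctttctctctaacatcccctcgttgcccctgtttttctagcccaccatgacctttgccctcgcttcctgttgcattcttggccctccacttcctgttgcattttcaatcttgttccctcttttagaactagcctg
Il18: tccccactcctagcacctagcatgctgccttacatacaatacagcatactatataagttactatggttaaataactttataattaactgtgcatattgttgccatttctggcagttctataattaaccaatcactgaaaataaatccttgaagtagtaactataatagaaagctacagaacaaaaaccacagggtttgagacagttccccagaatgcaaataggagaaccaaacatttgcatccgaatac
The Cxcl1 window is at chr5:90890995-90891244, plus strand, that of Cxcl2 at chr5:90903649-90903898, plus strand, and that of Cxcl3 at chr5:90785851-90786100, plus strand. Those of Nfkbia, Ccl6 and Il18 are at chr12:55492648-55492897, minus strand, at chr11:83593088-83593337, minus strand, and at chr9:50554450-50554699, plus strand. The marked 11 bases were identical in Cxcl1, Cxcl2 and Cxcl3, where they began 71, 97 and 73 bases before the start, and each stretch holds 2 overlapping matches. The Nfkbia match began 29 bases before the start. The match therefore accompanied genes at very different levels, with Cxcl1 at 0.145, Cxcl3 at 0.345, Cxcl2 at 2.66 and Nfkbia at 31 CPM per kb.

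Hyperoxia was compared with normoxia over both sexes, as the mean of the female and the male difference, by quasi-likelihood in edgeR, with p adjusted by Benjamini-Hochberg across the 19948 genes tested. None of the 32 members tested had an adjusted p under 0.05, where 141 of all genes (0.707%) did. At an unadjusted p under 0.05, 7 of the 32 (21.9%) stood out, all 7 with less RNA after hyperoxia, beside 8.13% of all genes (3.33% with less RNA). The 7 were Il18, Cxcl3, Relb, Cxcl2, Nfkbie, Tnfaip3 and Casp1. Relb, Nfkbie and Tnfaip3 belong to a set that moved largely together between libraries, described further on, so the 7 are not independent. The count was added after the data were seen. With DESeq2, 2 of the 32 had an adjusted p under 0.05, Il18 and Cxcl3, both lower in hyperoxia, beside 2.25% of all genes. The median log2 fold change of the 32 was -0.10, with 10 above 0, and that of all genes was -0.03. The median of the 32 was -0.014 with the replicate number as a block, and it was -0.055 without HF3, -0.039 without NM2 and -0.19 without NM3. Of the 7, only Il18 and Cxcl3 kept an unadjusted p under 0.05 without each library in turn. The count was 2 of 32 without HM2 (beside 6.07% of all genes) and 3 of 32 without HF3 (8.78%). It was 4 of 32 without NM2 (10.2%) and at most 10 of 32, without NM3 (10.7%). Leaving out HF2, HF3, NF3 and NM3 together gave 9 of 32 members, beside 7.31% of all genes. Of these members 8 were lower and Ccl9 was higher in hyperoxia: Tnfaip3 and Cxcl2 dropped out, and Ccl9, Nfkb2, Il1a and Il1b came in. With no low-count filter there were also 9 of 32, with 8 lower and Ccl9 higher, beside 5.39% of all genes.

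**Figure D2:**
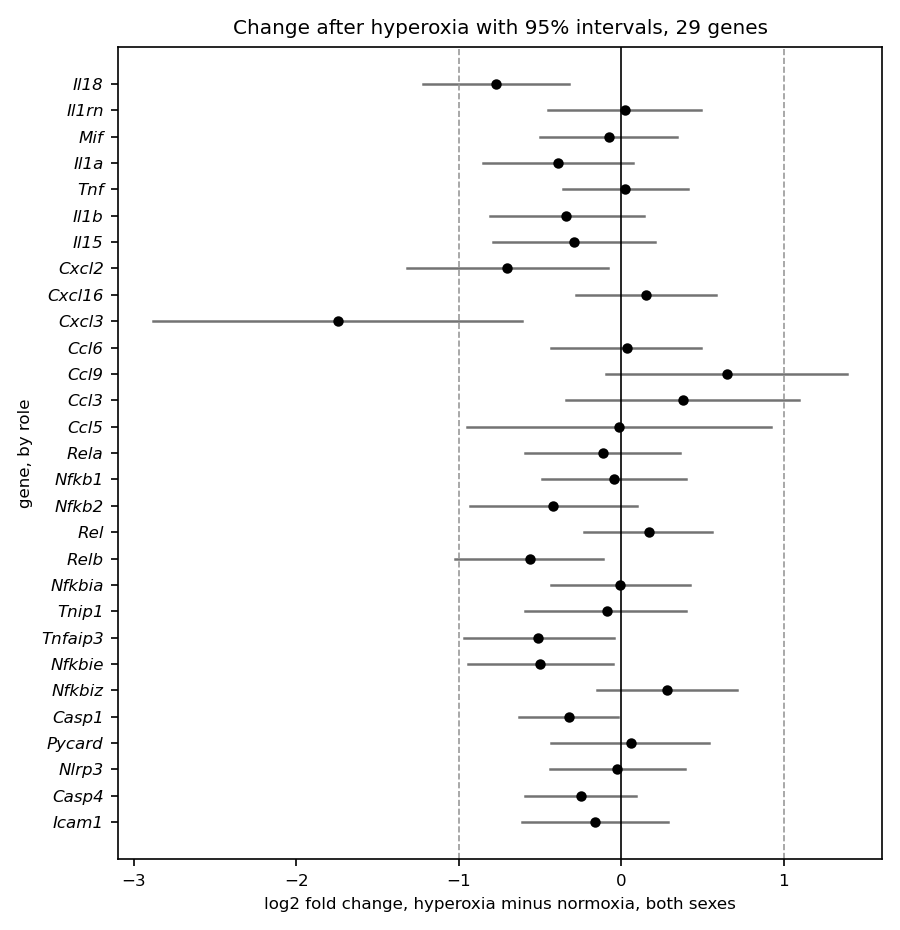
Log2 fold change (hyperoxia minus normoxia over both sexes) of the 29 members away from the count floor, with 95% intervals from edgeR's quasi-likelihood fit; dashed lines mark -1 and 1. The intervals of 23 genes lie between the dashed lines, and those of Il18, Cxcl2, Cxcl3, Ccl3, Ccl9 and Relb reach past one of them.

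Il18 had 88.5, 76.7 and 119 CPM in HF1 to HF3 and 116 and 87.6 CPM in HM2 and HM3, against 110, 123 and 210 CPM in NF1 to NF3 and 218, 150 and 201 CPM in NM1 to NM3. The male groups did not overlap, and in females HF3 lay above NF1. Over both sexes it averaged 97.5 ± 18.7 CPM in hyperoxia (SD, n = 5) and 168 ± 47 CPM in normoxia (SD, n = 6). Its log2 fold change was -0.77 ± 0.21 (SE), with an edgeR adjusted p of 0.138 that missed the threshold. The adjusted p was 0.0117 with DESeq2 and 0.0246 in edgeR with no low-count filter. Without the 4 libraries with most genes detected the log2 fold change was -0.62 (edgeR adjusted p = 0.316).

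Cxcl3, a ligand of the neutrophil receptor CXCR2, had the largest log2 fold change of the 29, and a low level. It had 0.265, 0.616 and 0.275 CPM in HF1 to HF3 and 0.749 and 0.636 CPM in HM2 and HM3, against 0.413, 1.1 and 2.76 CPM in NF1 to NF3 and 4.11, 1.37 and 0.981 CPM in NM1 to NM3. The male groups did not overlap, while NF1 lay below HF2. Its counts ran from 8 to 77 per library. The log2 fold change was -1.74 ± 0.54 (SE), with an adjusted p of 0.198 in edgeR and 0.037 in DESeq2. It was -1.29 without NF3 and -1.35 without NM1, the 2 highest normoxia libraries. Cxcl2, its neighbour in sequence and function, averaged 4.05 ± 1.17 CPM in hyperoxia (SD, n = 5) and 6.7 ± 3.21 CPM in normoxia (SD, n = 6), a log2 fold change of -0.70 ± 0.29 (SE, edgeR adjusted p = 0.486). It was -0.43 without NF3 and -0.32 without HF2, HF3, NF3 and NM3 together. Of the 50-base exon windows of Cxcl2, 5.84% also occur in Cxcl3, and of those of Cxcl3, 4.29% also occur in Cxcl2 or other genes. Cxcl16, the transmembrane ligand of CXCR6, averaged 6.43 ± 1.78 CPM in hyperoxia (SD, n = 5) and 5.97 ± 1.37 CPM in normoxia (SD, n = 6). It shares 16.9% of its windows with Zmynd15.

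The remaining cytokines had 95% intervals inside a log2 fold change of -1 to 1. Il1a had a log2 fold change of -0.39 ± 0.22 and Il1b one of -0.34 ± 0.23 (SE). That of Il1b was -0.11 without NM1, its highest normoxia library, and -0.58 without HF2, HF3, NF3 and NM3. Tnf, an early cytokine of macrophage activation that itself activates NF-kB, averaged 22.8 ± 3.14 CPM in hyperoxia (SD, n = 5) and 22.7 ± 4.97 CPM in normoxia (SD, n = 6). Its interval ran from -0.36 to 0.41. The interval of Il1rn ran from -0.45 to 0.49, that of Mif from -0.50 to 0.34, and that of Il15, which maintains NK and memory T cells, from -0.79 to 0.21. The log2 fold change of Il15 was -0.29, and it was -0.17 without HM3, -0.15 without NF3 or without NM3, and -0.022 without HF2, HF3, NF3 and NM3. A p above the threshold does not show that levels were equal, and these intervals give the differences the libraries left possible.

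Among the CC chemokines away from the floor, Ccl9 had the largest log2 fold change, 0.65 ± 0.35 (SE, edgeR adjusted p = 0.732), and it moved most with NF3 and NM1, its 2 high normoxia libraries. It was 1.05 without NF3 (adjusted p = 0.0879) and 0.94 without NM1 (adjusted p = 0.356). Ccl6 had 0.033 ± 0.22 (SE), with an interval of -0.43 to 0.49. Ccl3, a CC chemokine of activated macrophages, averaged 2.5 ± 0.557 CPM in hyperoxia (SD, n = 5) and 1.92 ± 0.702 CPM in normoxia (SD, n = 6), a log2 fold change of 0.38 that was 0.18 without NF1. Ccl5, a T cell chemokine, averaged 0.871 ± 0.392 CPM in hyperoxia (SD, n = 5) and 0.915 ± 0.424 CPM in normoxia (SD, n = 6), with an interval of -0.95 to 0.92.

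Over both sexes, 4 of the 5 NF-kB subunits and 4 of the 5 genes grouped as inhibitors had a log2 fold change below 0. The exceptions were Rel and Nfkbiz, the latter at 0.28 ± 0.21 (SE). None of the 10 had an edgeR adjusted p under 0.05. Relb had 12.1, 8.63 and 6.08 CPM in HF1 to HF3 and 8.51 and 8.87 CPM in HM2 and HM3, against 12.6, 15.8 and 9.53 CPM in NF1 to NF3 and 11.5, 19 and 9.81 CPM in NM1 to NM3. The male groups did not overlap, while HF1 lay above NF3. Its log2 fold change was -0.56 ± 0.22 (SE, edgeR adjusted p = 0.4). Of the other subunits, Nfkb2 (the p100 and p52 gene) had a log2 fold change of -0.42 ± 0.24 and Rela one of -0.11 ± 0.22. Nfkb1, the gene of p105 and p50, had -0.044 ± 0.21, and Rel, the c-Rel subunit, had 0.17 ± 0.19 (all SE). The value of Nfkb2 was -0.17 without NM2. Nfkb2 shares 14.9% of its 50-base windows with other annotated genes.

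Tnfaip3, the gene of the ubiquitin-editing inhibitor A20, had the largest log2 fold change among the inhibitors, -0.51 ± 0.22 (SE, edgeR adjusted p = 0.522). It had 43.6, 28.5 and 20.6 CPM in HF1 to HF3 and 26.7 and 36.6 CPM in HM2 and HM3, against 38, 52.6 and 34.5 CPM in NF1 to NF3 and 35.4, 65.4 and 41.4 CPM in NM1 to NM3. The groups overlapped in both sexes. Nfkbie, the gene of IkB epsilon, averaged 8.14 ± 1.67 CPM in hyperoxia (SD, n = 5) and 11.4 ± 3.12 CPM in normoxia (SD, n = 6). Its log2 fold change was -0.50 ± 0.21 (SE, edgeR adjusted p = 0.505). Nfkbia, the gene of IkB alpha and a standard readout of NF-kB activity, averaged 49.8 ± 9 CPM in hyperoxia (SD, n = 5) and 50.1 ± 15.7 CPM in normoxia (SD, n = 6), and its interval ran from -0.43 to 0.42. Tnip1, the A20-binding protein ABIN1, had an interval of -0.59 to 0.40.

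In the inflammasome group, Casp1, the gene of the protease that matures IL-1 beta and IL-18, was the 1 member of 32 whose hyperoxia libraries all lay below the normoxia libraries of their sex, beside 1.01% of all genes. No member had them all above, beside 2.44% of all genes. Casp1 had 32.4, 33.6 and 31.8 CPM in HF1 to HF3 and 35.1 and 32.2 CPM in HM2 and HM3, against 37.9, 36.9 and 43.7 CPM in NF1 to NF3 and 50.6, 41.6 and 38.6 CPM in NM1 to NM3. No hyperoxia library reached the lowest normoxia library of either sex. Its log2 fold change was -0.32 ± 0.14 (SE, edgeR adjusted p = 0.538), and its within-group SD of 0.13 on the log2 scale was the smallest of the 29 genes, whose median was 0.41. Casp4, the caspase-11 gene of the mouse, which senses cytosolic lipopolysaccharide, averaged 14.1 ± 1.65 CPM in hyperoxia (SD, n = 5) and 17.2 ± 3.99 CPM in normoxia (SD, n = 6). Its log2 fold change was -0.25, and it was -0.098 without NF3 and -0.067 without HF2, HF3, NF3 and NM3. Nlrp3, the sensor, had an interval of -0.44 to 0.39. Pycard, the adaptor ASC, had one of -0.43 to 0.54 and shares 11.7% of its windows with other genes. Icam1, the leukocyte adhesion ligand, had 72.6, 68.2 and 49.5 CPM in HF1 to HF3 and 67 CPM in both HM2 and HM3, against 69.4, 95.7 and 50.5 CPM in NF1 to NF3 and 79.8, 96.3 and 46.4 CPM in NM1 to NM3. These groups overlapped, with a log2 fold change of -0.16 ± 0.21 (SE, edgeR adjusted p = 0.978), and 13.1% of its windows also occur in other genes.

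**Figure D3:**
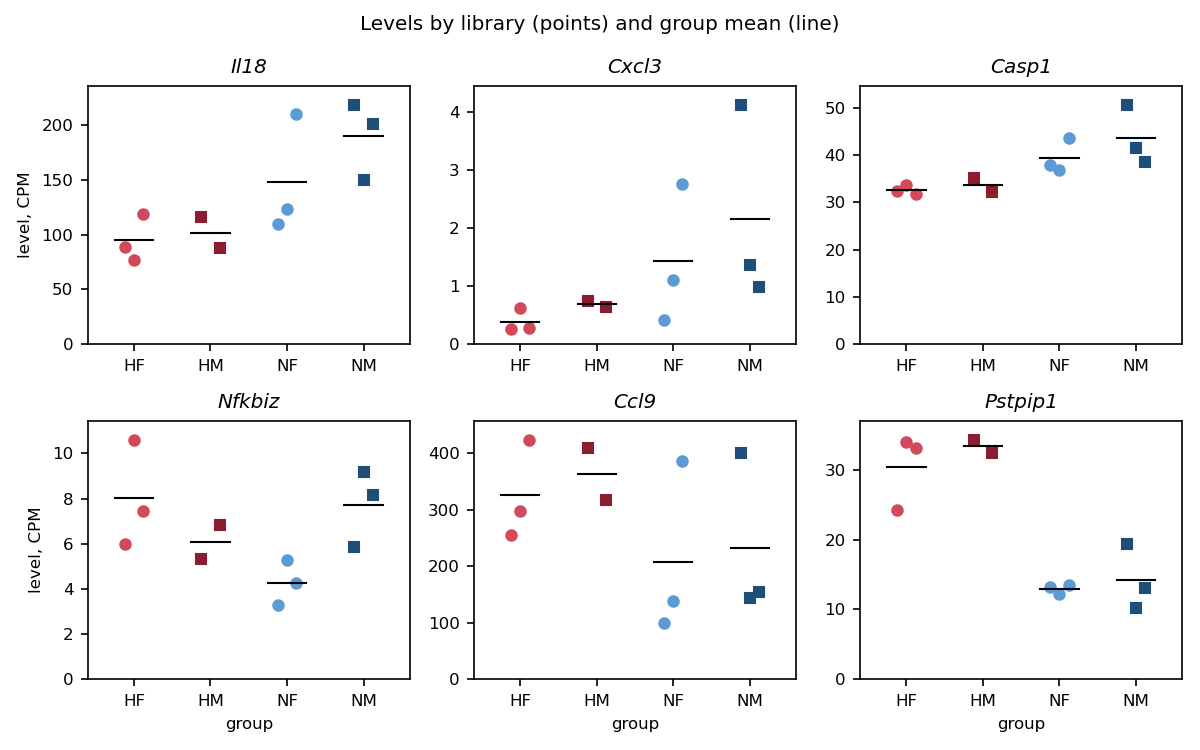
Level in CPM of 5 members and of Pstpip1, a pathway gene described further on, by group (HF hyperoxia female, HM hyperoxia male, NF normoxia female, NM normoxia male). Points are libraries, lines are group means, and axes start at 0. The Casp1 hyperoxia libraries span 31.8 to 35.1 CPM and lie below all normoxia libraries, while NF3 and NM1 stand apart in Ccl9 and Cxcl3.

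Precision differed between genes, and for most members it was enough to bound the change. Over both sexes, 23 of the 29 genes away from the floor had a 95% interval within a log2 fold change of -1 to 1, against 53.4% of all genes tested. The share of all genes includes genes with few counts, and over all 32 members tested the count was also 23, since none of the 3 near the floor had so narrow an interval. The other 6 were Il18, Cxcl2, Cxcl3 and Relb, whose intervals reached below -1, and Ccl3 and Ccl9, whose intervals reached above 1. Within 1 sex the intervals were wider, and 20 of the 29 in females and 15 of the 29 in males were within those bounds.

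The female and the male response were then compared. In females, no member had an edgeR adjusted p under 0.05 (0.0401% of all genes did), 3 of 32 had an unadjusted p under 0.05 (4.53% of all genes did), and DESeq2 called none (0.476% of all genes). In males, no member had an edgeR adjusted p under 0.05 (0.0401% of all genes did), 2 of 32 had an unadjusted p under 0.05 (5.5% of all genes did), and DESeq2 called none (0.446% of all genes). The 3 in females were Cxcl3 and Il18, with less RNA after hyperoxia, and Nfkbiz, with more. The 2 in males were Cxcl2 and Il18, both with less. For Il18 the log2 fold change was -0.64 ± 0.28 in females and -0.90 ± 0.32 in males (SE), and the difference between these responses was 0.26 ± 0.42.

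The difference between the responses, tested as the interaction, passed for no gene in edgeR, members included (0% of all genes), and for no member in DESeq2 (0.015% of all genes). At an unadjusted p under 0.05 it stood out for 1 of 32 members, Nfkbiz, beside 1.67% of all genes. Nfkbiz encodes IkB zeta, a nuclear IkB protein that, unlike the classical inhibitors, is needed for the induction of a subset of NF-kB targets. It had 6, 10.6 and 7.45 CPM in HF1 to HF3 and 5.32 and 6.81 CPM in HM2 and HM3, against 3.28, 5.27 and 4.27 CPM in NF1 to NF3 and 5.87, 9.17 and 8.15 CPM in NM1 to NM3. The female groups did not overlap and the male groups did. Its log2 fold change was 0.91 ± 0.28 in females and -0.35 ± 0.31 in males (SE). The difference of 1.26 ± 0.42 had an edgeR adjusted p of 1, and was 1.01 without HF2, the library with its highest value, and 0.80 with HF2, HF3, NF3 and NM3 all left out. Nfkbiz was picked out for description after its values were seen. For Cxcl2, the log2 fold change was -0.12 ± 0.38 in females and -1.28 ± 0.45 in males, and the difference of 1.16 ± 0.58 (SE) also had an adjusted p of 1. Intervals of the interaction were wide, lying within -1 to 1 for 9 of the 29 genes and reaching past one of these bounds for the other 20.

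**Figure D4:**
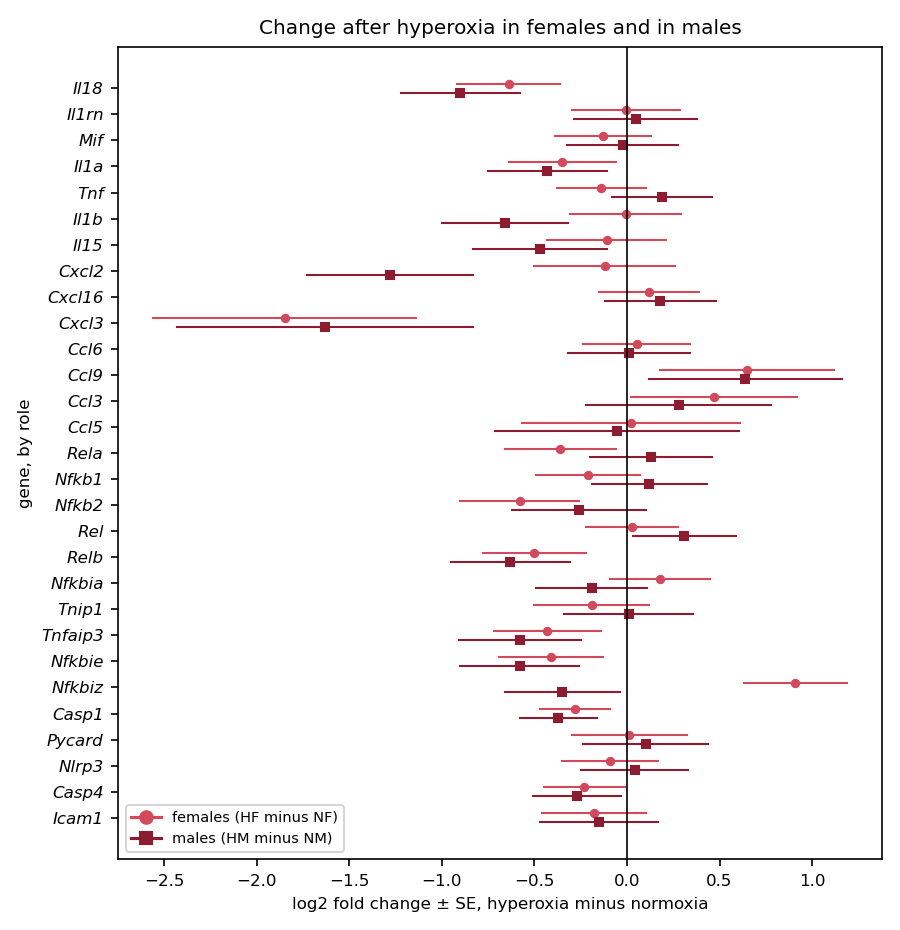
Log2 fold change ± SE (hyperoxia minus normoxia) in females (circles) and in males (squares) for the 29 members away from the count floor. Nfkbiz stands furthest apart, at 0.91 in females and -0.35 in males, followed by Cxcl2 at -0.12 in females and -1.28 in males.

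Female and male libraries were also compared over both oxygen groups. No member had an edgeR adjusted p under 0.05 (0.0251% of all genes did), and DESeq2 called none (0.175% of all genes). At an unadjusted p under 0.05, 1 of 32 members stood out, beside 3.27% of all genes. It was Cxcl16, with 5.58 ± 1.92 CPM in hyperoxia females (SD, n = 3) and 7.7 ± 0.0147 CPM in hyperoxia males (SD, n = 2), and with 5.14 ± 1.01 CPM in normoxia females (SD, n = 3) and 6.8 ± 1.27 CPM in normoxia males (SD, n = 3). Its female minus male log2 fold change was -0.43 ± 0.20 (SE, edgeR adjusted p = 0.994). For 27 of the 29 genes the interval of this contrast lay within -1 to 1, the exceptions being Cxcl3 and Ccl5. In the same contrast all 9 neutrophil markers tested had a log2 fold change above 0 (median 1.55), none with an adjusted p under 0.05, and their part in it was not tested.

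Libraries of 1 group differed among themselves, and many members shared that spread. In log2 CPM relative to the group mean, the 5 NF-kB subunits and the 5 genes grouped as inhibitors, Nfkbiz among them, moved largely together. NF2 held the highest value of its group for all 10 genes, NM2 for 9 and HF1 for 8. HF3 held the lowest value of its group for 9, NF3 for 8 and NM3 for 7. The summed per-kb level of the 5 subunits ran from 29.2 to 47.2 in the 4 libraries with most genes detected (HF2, HF3, NF3 and NM3) and from 38 to 66.7 in the other 7. A second set, Ccl6, Ccl9, Pycard and Il18, was highest in HF3, HM2, NF3 and NM1 of each group for all 4 genes. Both sets were noticed in these values and carry no test. Over the 29 genes the within-group SD was smallest for Casp1 (0.13) and largest for Cxcl3.

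**Figure D5:**
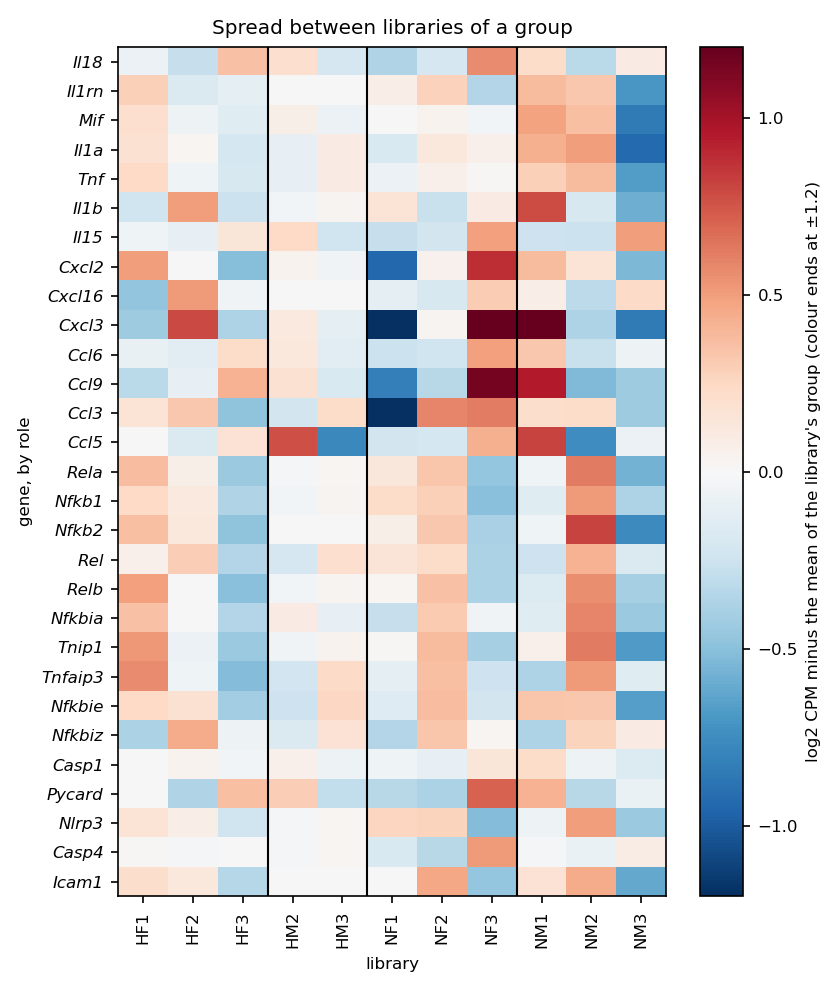
Log2 CPM of each of the 29 members in each library minus the mean of the library's group (HF, HM, NF and NM, divided by black lines); red is above and blue is below the group mean, and colours end at ±1.2. The block of NF-kB subunits and inhibitors is blue in HF3, NF3 and NM3 and red in HF1, NF2 and NM2.

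Genes that act with the members were taken from 6 lists of 140 genes in all, of which 127 were tested: cytokine receptors, NF-kB signalling proteins, further restraints on NF-kB, further inflammasome genes, other cytokines and chemokines, and NF-kB target genes. Over both sexes, 1 of the 127 passed edgeR's adjusted test (beside 0.707% of all genes), and none passed in females, in males, in the interaction or between the sexes. It was Pstpip1, which encodes an adaptor that binds pyrin and is mutated in an inherited autoinflammatory syndrome of humans. Pstpip1 had 24.3, 34 and 33.1 CPM in HF1 to HF3 and 34.3 and 32.5 CPM in HM2 and HM3, against 13.2, 12.2 and 13.5 CPM in NF1 to NF3 and 19.4, 10.2 and 13 CPM in NM1 to NM3. Every hyperoxia library lay above every normoxia library. It rose with a log2 fold change of 1.24 ± 0.17 (SE, edgeR adjusted p = 0.00205), with like values in females (1.23 ± 0.23) and males (1.24 ± 0.25). It lost the call, at 1.06 and an adjusted p of 0.0967, without the 4 libraries with most genes detected, and kept it under the other 16 alternatives.

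Of the lists, none of 19 cytokine receptors passed in either direction (median log2 fold change 0.11), nor did any of 30 signalling proteins (-0.03), 15 restraints (0.05), 23 other cytokines and chemokines (0.17) or 27 target genes (-0.14), beside a median of -0.03 over all genes. In the inflammasome list 1 of 14 passed upward and none downward (median 0.14). The other genes named here are, per list, those with the smallest p whose log2 CPM averaged 1 or more, and none of them passed. Lif, a cytokine of the IL-6 family, averaged 7.44 ± 2.17 CPM in hyperoxia (SD, n = 5) and 4.05 ± 0.777 CPM in normoxia (SD, n = 6), a log2 fold change of 0.83 ± 0.21 (SE, edgeR adjusted p = 0.0892). Cxcl14, a homeostatic chemokine, had 0.86 ± 0.23 (adjusted p = 0.117). Cd83, an activation marker and NF-kB target, averaged 52.5 ± 9.9 CPM in hyperoxia (SD, n = 5) and 79.9 ± 13.8 CPM in normoxia (SD, n = 6), with -0.58 ± 0.18 (adjusted p = 0.186). Il18rap, the accessory chain of the IL-18 receptor, had 0.65 ± 0.24 (adjusted p = 0.361). Zc3h12a, the RNase regnase-1 that degrades cytokine mRNAs, had -0.43 ± 0.17 (adjusted p = 0.416). Gbp5, an interferon-induced GTPase, had 1.17 ± 0.39 (adjusted p = 0.271), with 22.3 CPM in HF2 and 2.48 to 5.5 CPM in the other hyperoxia libraries, against 2.29 to 3.09 CPM in normoxia. The other named genes, with log2 fold changes and SE, were Map3k8 (-0.37 ± 0.15), Il6st (-0.37 ± 0.23), Tab2 (0.30 ± 0.20), Socs3 (0.46 ± 0.21) and Marcksl1 (0.55 ± 0.22).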

How the data were processed

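Per the labels, RNA of sorted alveolar macrophages was made into libraries with the SMART-Seq v4 low-input kit, the first 8 nt (UMIs) and the adapter were trimmed, and some libraries were purified of short fragments and resequenced. The authors deposited raw counts per Ensembl gene for 11 libraries. Per the submitters' processing notes the build was mm39, and the tools named, with no role, were STAR 2.7.9, Salmon 1.10.1, DESeq2 1.42 under R 4.3.2, and Trim Galore 0.6.7. The sources used here do not give the annotation, the strand setting or any collapsing of UMIs, so counts may include PCR copies, and overlapping or antisense genes may share reads. No per-sample column of the table was left unused (0 columns).

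Symbols were matched for 51884 of the 57180 identifiers (90.7%). Counts were tested in R 4.3.3 with edgeR 4.0.16 (limma 3.58.1): filterByExpr (minimum count 10, total 15), TMM scaling, a robust quasi-likelihood fit of 4 group means over all 11 libraries, and 5 contrasts, each with Benjamini-Hochberg adjustment over 19948 genes and a threshold of 0.05. The code was tested on simulated counts. DESeq2 1.42.0 was the alternative test. CPM use TMM-scaled library sizes, and exon lengths and the 50-base window comparison use GENCODE M21. Each member is named; it is given per library when among the 5 highest per kb or when its log2 fold change is the largest of its role group, and Nfkbiz was added after its values were seen. Pathway genes named are those called and the 2 per list with the smallest p at a mean log2 CPM of at least 1. Members, roles and lists were chosen with earlier results of these data known. A hyperoxia male replicate 1 was not analysed here.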

Additional observations from a re-analysis of the deposited data

Results flagged for a closer look

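Nfkbiz, the gene of IkB zeta, and Rela, the gene of the p65 subunit, had hyperoxia and normoxia differences of opposite sign in the 2 sexes. For Nfkbiz the log2 fold change was 0.91 in females and -0.35 in males, a difference of 1.26 ± 0.42 (SE). For Rela it was -0.36 in females and 0.13 in males, a difference of -0.49 ± 0.45 (SE). Tested as the interaction in edgeR, neither passed (adjusted p = 1 for each). Over the alternatives the Nfkbiz difference ran from 0.80 to 1.43, with adjusted p from 0.732 to 1. No group holds 4 libraries, so single libraries were not tested as outliers.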

How the results depend on the processing

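Over both sexes, 141 genes passed, against 302 with no filter, 256 with the replicate block, 23 without the 4 libraries with most genes detected and 448 with DESeq2; no filter called 1 member (Il18) and DESeq2 2 (Il18, Cxcl3). The same settings gave 83, 21, 16 and 89 genes in males (8 as reported; 34 from that sex alone) and 96, 23, 2 and 95 in females (8; 14 from that sex alone). The interaction had 6 genes with no filter, 1 without robust estimation, 1 without the 4 libraries and 3 with DESeq2, and its member median was 0.38 without the 4 libraries. Between the sexes there were 62 with no filter, 9 with the block and 35 with DESeq2. The labels' replicate numbers were not taken to pair libraries, since not every same-number correlation was over 0.1. They ran from -0.167 to 0.574 over 15 pairs, although the normoxia female and male pairs gave 0.133, 0.437 and 0.574. HF3 gave 0.433 with NF3 and 0.486 with NM3. The deviations of HM2 and HM3 from the mean of their 2 libraries mirror each other, as in -0.00579 and 0.00579 with HF2. Pairs with HM2 and pairs with HM3 are thus not separate evidence on pairing. Some libraries correlated best with a library of their own number, as HF3 with NM3, and others did not, as HF1 with NM2 (0.512). The block moved the member median over both sexes to -0.014 (reported as -0.10) and in males to -0.032 (-0.17). Without the 4 libraries the member median in females was -0.00057 (-0.13). With a floor of 10 counts, 6 members lay at or under it in 6 or more libraries, against 2 at 3 counts. Leaving out each library in turn gave 36 to 195 genes over both sexes (63 without HF2, 48 without HM2, 36 without HM3, 65 without NF1, 80 without NF2), 0 to 19 in males (0 without HM3, 3 without HM2, 5 without NM3, 18 without NF3, 19 without NM1), 0 to 24 in females (0 without HF2 or HF3, 5 without HF1, 2 without NF1, 3 without NF2, 4 without NF3, 14 without NM1, 24 without NM2, 16 without NM3), 0 to 1 in the interaction (1 without NM1) and 5 to 14 between the sexes (8 without NM3, 14 without NF3). Members called stayed at 0 to 0, and those with an unadjusted p under 0.05 numbered 2 to 10, beside 4.73% to 10.7% of all genes. Of 29 members, 11 changed sign under some of 17 alternatives, all with small differences: Il1rn (-0.0036 with RLE scaling or DESeq2, -0.055 without the 4 libraries), Tnf (-0.0026) and Ccl6 (-0.0015, both with RLE or DESeq2), Ccl5 (0.059 with the block, 0.058 without the 4), Nfkbia (0.018 and 0.041), and, with the block, Nfkb1 (0.021), Tnip1 (0.0057) and Nlrp3 (0.049). One library left out gave -0.12 to 0.097 for Il1rn, -0.12 to 0.12 for Tnf, -0.49 to 0.28 for Ccl5, -0.058 to 0.18 for Ccl6, -0.11 to 0.17 for Nfkbia, -0.15 to 0.11 for Nfkb1, -0.24 to 0.071 for Rela, -0.24 to 0.088 for Tnip1, -0.13 to 0.12 for Nlrp3, -0.093 to 0.28 for Pycard and -0.24 to 0.026 for Mif. The causes were not tested. The member counts at an unadjusted p, Pstpip1 and the Nfkbiz interaction were added as results after seeing the data.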
